A study of Mus musculus with 2 samples.

Results

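The genes described here are 44 cyclins, cyclin-dependent kinases (CDKs), CDK inhibitors and the proteins that switch CDKs on and off. They were taken from a list of gene symbols, drawn up with earlier results of these data known, and 39 of the 44 were found among the 19505 named genes of the array. Ccnd1, Ccnb1, Ccnf, Cdk9 and Cdk12 were not analysed here. Macrophages were grown from mouse bone marrow in M-CSF, which drives the formation of macrophages. It was given on day 0 and again on day 3 at 25 ng/mL, and the cells were used from day 5. One array came from the genotype written LysM (+);MC4RTB/TB, called LysM(+) here, and one from MC4RTB/TB, called TB/TB here, so both groups carried the TB allele of the melanocortin 4 receptor gene and differed by LysM. As background, a TB allele is commonly a transcription block that Cre recombinase removes, and LysM commonly names a Cre driven by a myeloid promoter. The labels give neither point, nor the animals' age or sex or whether marrow was pooled.

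A cyclin binds a CDK and makes it active at one stage of the cell cycle. D-type cyclins with Cdk4 or Cdk6, and E-type cyclins with Cdk2, phosphorylate the retinoblastoma protein in G1 and release E2F factors, cyclin A2 acts in S phase, and B-type cyclins with Cdk1 drive mitosis. Inhibitors of the Cip/Kip and INK4 families hold these kinases back, while a separate set of cyclins and CDKs acts on RNA polymerase II and RNA processing rather than on division. Macrophages grown in M-CSF divide for some days and then slow as they mature.

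With 1 array in each group there was no replicate error and no test was possible. All differences are LysM(+) minus TB/TB of the deposited values, which were taken as log2. A gene was counted as higher or lower when the 2 arrays were 1.5-fold or more apart and the brighter one reached 6.12, the median level of named probe sets, called the floor. Among the 10137 genes that reached the floor, 16.1% were counted, 10.9% as higher in LysM(+) and 5.16% as lower. Their median difference was 0.07, and that of all 19505 genes was -0.01. The highest of 23 background control probe sets read 6.81, so a value up to that level cannot be told from background. A further 5222 probe sets carry "neg" in their IDs. The sources used here do not say what they detect. Their median level was 6.33, above the floor, and the 95th percentile of their brighter values was 10.6. Values above 6.81 are thus also found among them. Without a floor, 14.5% of these 5222 were past 1.5-fold in the higher direction and 22.9% in the lower one, and 11 (0.211%) were at least 8-fold higher. The largest of their differences was 5.43, above that of any cyclin or CDK gene. Among the 10137 named genes at the floor, 19 were 8-fold higher or more. The "neg" counts used no floor, so they are not on the same footing. Without a floor, 6.98% of the 19505 named genes were past 1.5-fold in the higher direction and 5.51% in the lower one. Mc4r read 4.45 in LysM(+) and 4.57 in TB/TB, both within the background range, so its probe set is no check on the labels.

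Of the 39 measured cyclin, CDK and inhibitor genes, 15 were counted as higher in LysM(+), 0 as lower and 24 as neither. Over all genes at the floor, 10.9% were higher and 5.16% lower. The G1, S, mitotic and switch classes held 13 of these 15 members. In these classes 17 of 18 measured members reached the floor, and the median difference over the 18 was 0.96. Across the transcriptional, inhibitor and atypical classes, 18 of 21 measured members reached the floor. Of these 18, 2 were counted as higher, near the 10.9% of all genes at the floor. The median over the 21 was 0.11. A total of 35 members reached the floor. Cdk1, Cks1b, Cdc25b and Pkmyt1 did so only through the LysM(+) array, and Cks2 only through the TB/TB array. These members therefore passed the filter through the array where they were brighter. Of the 15 counted members, 8 read above all background controls on both arrays. These were Ccnb2, Ccne1, Cdk2, Cdk6, Wee1, Cdkn3, Ccnh and Cdkn2d.

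**Figure D1:**
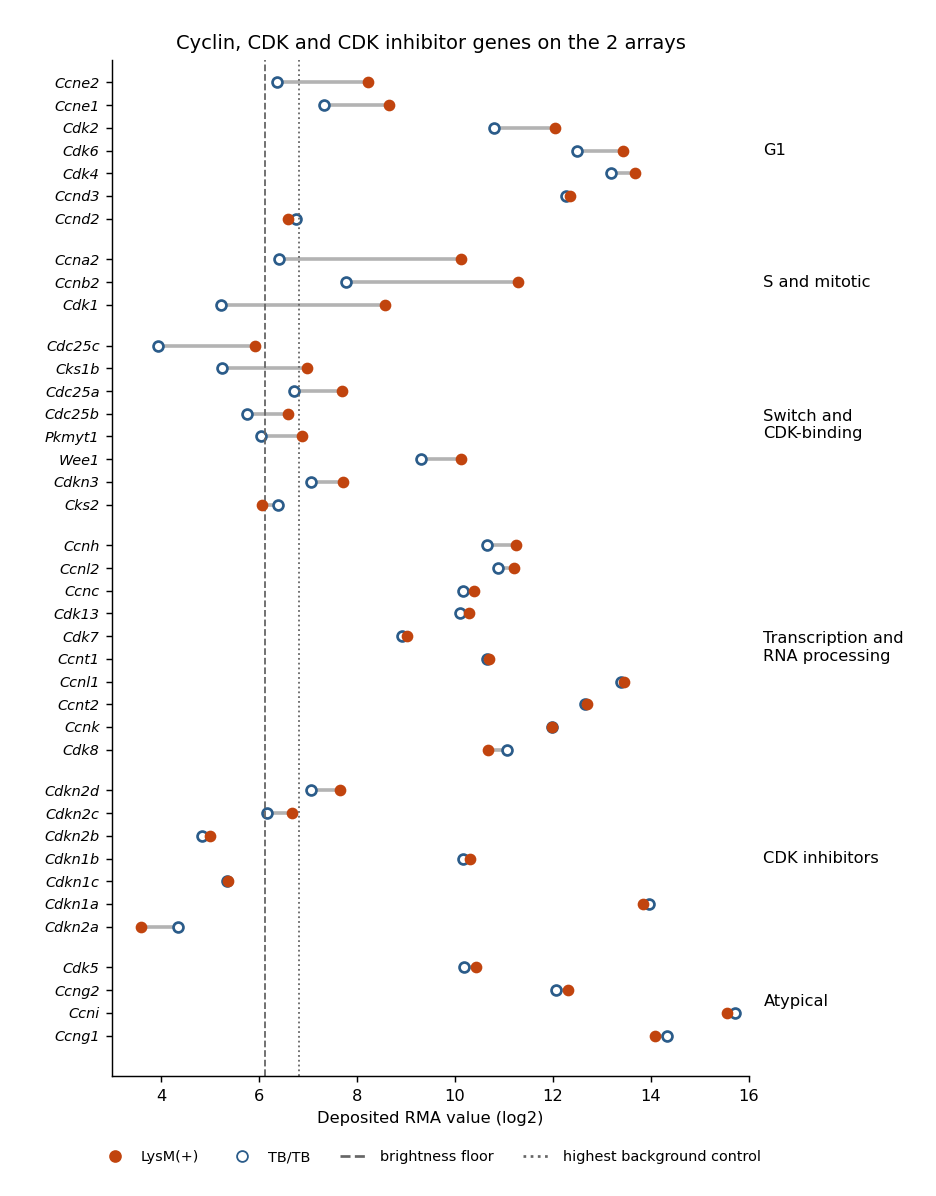
Deposited RMA value (log2, horizontal axis) of each of the 39 measured genes in LysM(+) (filled) and TB/TB (open), grouped by role and joined by a grey line. The longest lines are those of Ccna2, Ccnb2 and Cdk1, of which Ccna2 and Cdk1 start within the background range in TB/TB, and the widest gap among transcription, inhibitor and atypical genes is that of Cdkn2a (-0.75), under the floor on both arrays; the dashed line marks the floor at 6.12 and the dotted line the highest background control at 6.81.

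All 3 measured cyclin and kinase genes of S phase and mitosis were counted as higher in LysM(+), against 10.9% of all genes at the floor. Their median difference was 3.52. Ccna2, whose product pairs with Cdk2 in S phase and with Cdk1 later, read 10.13 in LysM(+) and 6.40 in TB/TB, a difference of 3.73 or 13.3-fold. Ccnb2, a mitotic partner of Cdk1, read 11.28 in LysM(+) and 7.77 in TB/TB, a difference of 3.52 or 11.4-fold. Cdk1, the kinase that starts mitosis, read 8.56 in LysM(+) and 5.22 in TB/TB, a difference of 3.34 or 10.1-fold. Ccnb2 was the only one of the 3 above the background controls in TB/TB, and it ranked 8 by difference among the 10137 genes at the floor. The differences of Ccna2 and Cdk1 depend on TB/TB values within the background range, and Cdk1 reached the floor only in LysM(+). Against the highest background control, Ccna2 was at least 9.93-fold and Cdk1 at least 3.35-fold higher in LysM(+). RefSeq lists a pseudogene of Ccnb2, and signal shared with it was not tested.

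The promoters of Ccnb2 and Cdk1 are shown because genes of the mitotic programme are known to share promoter elements, and these members had the largest counted differences among those with a promoter sequence at hand. Each runs from 250 bases before to 50 bases after the start site on the gene's strand, from RefSeq on GRCm38.p6. Ccnb2 lies on the minus strand at chr9:70421505-70421804 and Cdk1 on the minus strand at chr10:69352863-69353162. Capitals mark 4 kinds of short word searched on both strands. They are the cell cycle homology region (CHR) words TTTGAA and TTCGAA, the CCAAT box bound by NF-Y (CCAAT), the E2F words TTCCCGC or TTGGCGC or TTCGCGC or TTGCCGC, and the word TATAAA.
Ccnb2: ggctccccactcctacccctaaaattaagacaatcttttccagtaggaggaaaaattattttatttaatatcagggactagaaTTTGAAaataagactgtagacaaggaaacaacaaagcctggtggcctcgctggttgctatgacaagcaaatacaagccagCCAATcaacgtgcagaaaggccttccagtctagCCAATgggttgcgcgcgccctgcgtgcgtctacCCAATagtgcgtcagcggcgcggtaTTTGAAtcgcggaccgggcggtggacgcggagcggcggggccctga
Cdk1: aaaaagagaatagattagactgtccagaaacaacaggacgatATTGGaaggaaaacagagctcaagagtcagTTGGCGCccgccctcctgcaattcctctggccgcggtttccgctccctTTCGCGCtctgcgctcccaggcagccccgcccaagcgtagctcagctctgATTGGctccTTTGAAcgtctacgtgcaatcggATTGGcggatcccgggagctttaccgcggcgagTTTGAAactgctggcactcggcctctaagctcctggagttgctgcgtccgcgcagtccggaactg

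In the Ccnb2 promoter, 3 CCAAT words began 87, 54 and 21 bases before the start site, and TTTGAA began 167 bases before and 4 bases after it. Cdk1 held 3 CCAAT words on the opposite strand, beginning 208, 80 and 48 bases before the start. It also held TTTGAA at 71 and 15 bases before the start and E2F words at 178 and 130 bases before it. No 2 kinds of word shared bases in either promoter (0 overlaps).

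Among the G1 genes, the E-type cyclins and their kinase Cdk2 were counted as higher in LysM(+), while the measured D-type cyclins were not counted. All 7 measured G1 members reached the floor, and 4 were counted as higher in LysM(+) and 0 as lower, with a median difference of 0.94. Over all genes at the floor, 10.9% were higher and 5.16% lower. Ccne2 read 8.22 in LysM(+) and 6.36 in TB/TB, a difference of 1.85 or 3.61-fold, and was at least 2.64-fold above the highest background control. Ccne1 read 8.66 in LysM(+) and 7.33 in TB/TB, a difference of 1.33 or 2.51-fold. Cdk2, the kinase that both E-type cyclins activate, read 12.04 in LysM(+) and 10.79 in TB/TB, a difference of 1.24 or 2.37-fold. The E-type cyclins and Cdk2 thus all had higher signal on the LysM(+) array, and Ccne1 and Cdk2 were above the background controls on both arrays.

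The kinases of D-type cyclins were less far apart. Cdk6 read 13.44 in LysM(+) and 12.50 in TB/TB, which is 1.91-fold higher. Cdk4 read 13.68 in LysM(+) and 13.18 in TB/TB, a difference of 0.50 that was not counted. Ccnd3, a D-type cyclin gene, read 12.35 in LysM(+) and 12.26 in TB/TB, a difference of 0.08. Ccnd2 read 6.59 in LysM(+) and 6.75 in TB/TB, both within the background range. The D-type cyclin genes that were measured therefore stayed near the all-gene median or near background. RefSeq lists a pseudogene of Ccnd3 as well.

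Promoters of Ccne1 and Cdk2 are shown for comparison with those of the mitotic genes. Ccna2 and Ccne2 had no entry in the promoter table. Ccne1 lies on the minus strand at chr7:38107441-38107740 and Cdk2 on the minus strand at chr10:128705002-128705301, with the same capitals as above.
Ccne1: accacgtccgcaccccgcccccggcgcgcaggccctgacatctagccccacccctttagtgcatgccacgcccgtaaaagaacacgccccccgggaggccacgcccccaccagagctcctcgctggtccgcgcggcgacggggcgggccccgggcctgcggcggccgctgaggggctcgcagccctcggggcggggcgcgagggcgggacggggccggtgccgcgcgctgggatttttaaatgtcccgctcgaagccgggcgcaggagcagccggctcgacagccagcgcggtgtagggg
Cdk2: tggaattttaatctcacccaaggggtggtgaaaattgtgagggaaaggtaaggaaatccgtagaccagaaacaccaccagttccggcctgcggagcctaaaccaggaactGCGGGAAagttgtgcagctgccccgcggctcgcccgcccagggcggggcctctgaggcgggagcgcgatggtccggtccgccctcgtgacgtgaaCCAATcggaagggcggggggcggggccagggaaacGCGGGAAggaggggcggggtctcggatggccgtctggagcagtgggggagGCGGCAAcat

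Cdk2 held E2F words beginning 140 and 10 bases before the start and 40 bases after it, all on the opposite strand, and 1 CCAAT word at 45 bases before the start. Ccne1 held 0 of the words searched in this window, which says only that these letters are not in it.

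Of 8 measured genes whose products switch CDKs or bind to them, 7 reached the floor. Of these 7, 6 were counted as higher in LysM(+) and 0 as lower, against 10.9% and 5.16% of all genes at the floor. The median difference of the 8 was 0.83. Cks1b, Cdc25b and Pkmyt1 reached the floor only through LysM(+), and 2 of the 6, Wee1 and Cdkn3, were above the background controls on both arrays. The Cdc25 phosphatases remove the inhibitory phosphates of CDKs, and Wee1 and Pkmyt1 are the kinases that add them. Cdc25a read 7.69 in LysM(+) and 6.71 in TB/TB (1.97-fold), and Cdc25b read 6.59 in LysM(+) and 5.75 in TB/TB (1.79-fold). Wee1 read 10.12 in LysM(+) and 9.31 in TB/TB (1.75-fold), and Pkmyt1 read 6.88 in LysM(+) and 6.05 in TB/TB (1.78-fold). The bound against the highest background control was 1.83-fold for Cdc25a and 1.04-fold for Pkmyt1, and Cdc25b lay within the background range on both arrays. Cdc25c, another Cdc25 phosphatase gene, read 5.92 in LysM(+) and 3.93 in TB/TB, under the floor on both arrays. It was not counted despite a difference of 1.98.

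Cks1b and Cks2 encode small CDK-binding proteins of similar sequence, and their values went opposite ways. Cks1b, which helps the ligase SCF-Skp2 recognise the inhibitor p27, read 6.98 in LysM(+) and 5.25 in TB/TB, a difference of 1.73. Its bound against the highest background control was 1.12-fold. Cks2 read 6.06 in LysM(+) and 6.39 in TB/TB, a difference of -0.33, with both values within the background range. Cdkn3, a phosphatase that acts on CDKs and carries the name of an inhibitor, read 7.71 in LysM(+) and 7.07 in TB/TB, which is 1.56-fold higher. The 2 Cks genes were thus dim, and their opposite signs rest on values near background.

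**Figure D2:**
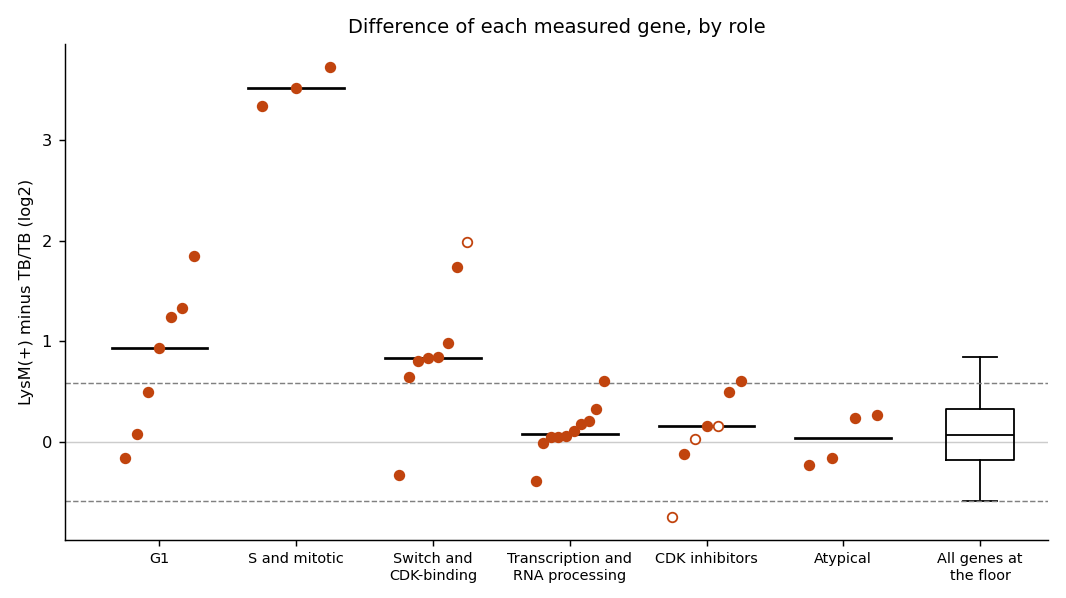
Difference LysM(+) minus TB/TB (log2, vertical axis) of each measured gene by role; open points did not reach the floor on either array, bars mark class medians and dashed lines mark 1.5-fold. The box shows the quartiles of the 10137 genes at the floor, with whiskers from the 5th to the 95th percentile. The 3 S and mitotic genes lie above 3, and 9 of 10 transcription genes lie between the dashed lines.

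All 10 measured transcriptional and RNA-processing cyclins and kinases were at the floor on both arrays. Of these, 1 was counted as higher in LysM(+) and 0 as lower, near the share of all genes at the floor (10.9% higher), and the median difference was 0.08, against 0.07 for those genes. Ccnh, whose product pairs with Cdk7 in the CDK-activating kinase and in the transcription factor TFIIH, was the counted one, at 11.26 in LysM(+) and 10.65 in TB/TB (1.52-fold). It fell short of 1.5-fold after quantile normalization (0.51) and after loess (0.51). Its partner Cdk7 read 9.01 in LysM(+) and 8.91 in TB/TB. The 2 genes of this complex therefore differed by unequal amounts, 0.60 and 0.11 (both log2).

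Ccnt1 and Ccnt2, the cyclins of the elongation factor P-TEFb, differed by 0.05 and 0.04. Ccnk, the partner of Cdk12 and Cdk13, differed by -0.01, and Cdk13 by 0.18. The elongation cyclins and kinases that were measured thus differed by at most 0.18. Ccnc and Cdk8 form the kinase module of the Mediator complex. Ccnc read 10.38 in LysM(+) and 10.17 in TB/TB, and Cdk8 read 10.67 in LysM(+) and 11.05 in TB/TB, a difference of -0.39 that was the lowest of the class. Ccnl1 and Ccnl2, cyclins linked to splicing, differed by 0.05 and 0.33.

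Of 7 measured CDK inhibitor genes, 4 reached the floor, and of these 1 was counted as higher in LysM(+) and 0 as lower. Over all genes at the floor, 10.9% were higher and 5.16% lower, and 4 genes are too few to set against these shares. The median difference of the 7 was 0.15. Cdkn1a, which encodes p21, a p53 target, read 13.84 in LysM(+) and 13.96 in TB/TB, a difference of -0.12. Cdkn1b, which encodes p27, read 10.31 in LysM(+) and 10.15 in TB/TB, a difference of 0.15. The 2 inhibitor genes with signal well above the background controls therefore differed by little between the arrays. Cdkn2d, an INK4 gene, was the counted member, at 7.65 in LysM(+) and 7.05 in TB/TB (1.52-fold), and its difference dropped to 0.58 after loess, under 1.5-fold. Cdkn2c, another INK4 gene, read 6.66 in LysM(+) and 6.17 in TB/TB, within the background range.

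A further 3 inhibitor probe sets were under the floor on both arrays. Cdkn2a read 3.60 in LysM(+) and 4.35 in TB/TB, a difference of -0.75 that was not counted. This locus encodes both the CDK inhibitor p16INK4a and the unrelated protein p19ARF, and 1 probe set cannot separate them. Cdkn2b read 4.99 in LysM(+) and 4.83 in TB/TB, and Cdkn1c read 5.37 in LysM(+) and 5.34 in TB/TB. Set against the inhibitors' median within the same arrays, the median difference was larger by 3.36 for S and mitotic genes, 0.78 for G1 genes and 0.68 for switch genes. For transcriptional genes it was -0.07 relative to the inhibitors, and for atypical genes -0.12. The inhibitors' median includes the 3 under the floor, and over the 4 that reached it the median was 0.32, so the distances depend on the dim members.

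All 4 atypical members reached the floor and 0 were counted, too few genes to set against 10.9% higher and 5.16% lower among all genes at the floor. Ccng1, a p53 target, read 14.09 in LysM(+) and 14.32 in TB/TB, a difference of -0.23. Ccng2, a cyclin linked to cell cycle exit and FoxO factors, read 12.30 in LysM(+) and 12.06 in TB/TB, a difference of 0.24. Ccni differed by -0.16 and Cdk5, a kinase best known from neurons, by 0.26. Neither Ccng1 nor Ccng2 was thus 1.5-fold apart between the arrays.

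Short promoter words were compared between counted and other members. Of the 44 members, 34 had a promoter in the table, including 10 of the 15 higher in LysM(+) and 20 of the other 24 measured ones. A CHR word was present in 5 of those 10 (Ccnb2, Cdk1, Cks1b, Cdkn3 and Cdc25b) and in 2 of the 20 (Ccni and Cdkn2b). Of all 32851 promoters, 19.2% held one, and of those of genes at the floor, 14.6%. The CCAAT word was in 8 of the 10 and 10 of the 20, against 37.8% of promoters of genes at the floor. An E2F word was in 3 of the 10 (Cdc25a, Cdk1 and Cdk2) and 4 of the 20, against 16.1%. TATAAA was in 1 of the 10 (Cdk6) and 0 of the 20, against 7.89%. Members with several promoters were scored if any of them held the word, and no test was made of these counts.

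**Figure D3:**
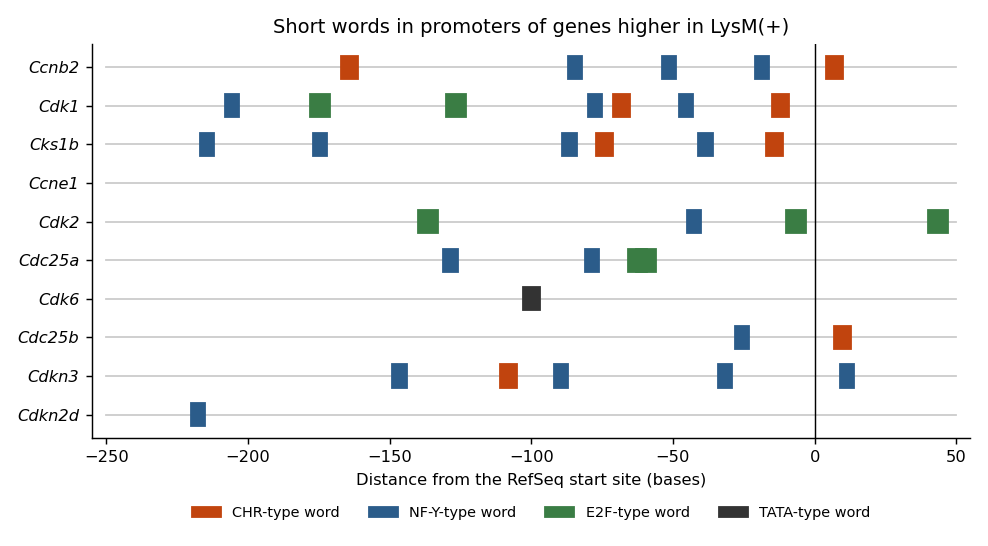
Position of short words in the promoters of the 10 genes higher in LysM(+) that had one, as distance in bases from the RefSeq start site (horizontal axis); genes run from the largest difference at the top to the smallest. Ccnb2, Cdk1 and Cks1b each hold CHR-type and NF-Y-type words, and Ccne1 holds none of the words searched (0).

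Other genes of the pathway were grouped in 7 lists, whose counts stand beside 10.9% higher and 5.16% lower among all genes at the floor. Of 24 measured proliferation genes outside the family, 23 reached the floor, and 22 were counted as higher in LysM(+) and 0 as lower. The median difference of the 24 was 1.84, and Plk1, Rrm2 and Bub1 differed by 4.01, 3.47 and 2.98. Of 16 measured partners of transcriptional CDKs, 15 reached the floor and 0 were counted in either direction. The median of the 16 was 0.0011. Among 19 measured RB, E2F and DREAM complex genes, 18 reached the floor, and 8 were counted as higher and 0 as lower. E2f8 differed by 2.10, Rbl1, which encodes the pocket protein p107, by 1.68, and E2f2 by 1.13. Bub1, at 5.37 in TB/TB, and E2f2, at 5.86 in TB/TB, reached the floor only through LysM(+). Rb1 and Rbl2 differed by 0.15 and -0.28; both were chosen after seeing their values.

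Genes of the ubiquitin ligases that destroy cyclins and inhibitors, all 23 of which reached the floor, were counted as higher in 8 cases and as lower in 1. Ube2c, Fbxo5 and Cdc20, which act with or on the anaphase-promoting complex, differed by 4.06, 2.25 and 1.93. Cdc20 read 6.21 in LysM(+) and 4.28 in TB/TB, both within the background range, and reached the floor only through LysM(+). Fbxw7, the ligase subunit that marks cyclin E for destruction, read 7.11 in LysM(+) and 8.31 in TB/TB, a difference of -1.20. Skp2, the subunit that marks p27, differed by 1.12 and was chosen after seeing its value. The next 3 lists held few counted genes, to be read beside 10.9% higher and 5.16% lower among all genes at the floor. Of 30 other cyclin and CDK family genes, 19 reached the floor. Among these, 3 were counted as higher (Cdk2ap1, Cdk5rap2 and Cdk14, by 1.06, 1.06 and 0.82) and 1 as lower (Cdk5r1, -0.77). Of 17 other p53 targets, 13 reached the floor. Plk2 was counted as higher by 0.70, and Gadd45a and Fas were lower, at -1.13 and -0.76. In the list of M-CSF signalling, MYC network and macrophage exit genes, 16 of 20 measured genes reached the floor. Myc was counted as higher by 1.62 and Foxo3 as lower, at -0.79. Csf1r, the M-CSF receptor, also chosen after seeing its value, differed by -0.20.

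**Figure D4:**
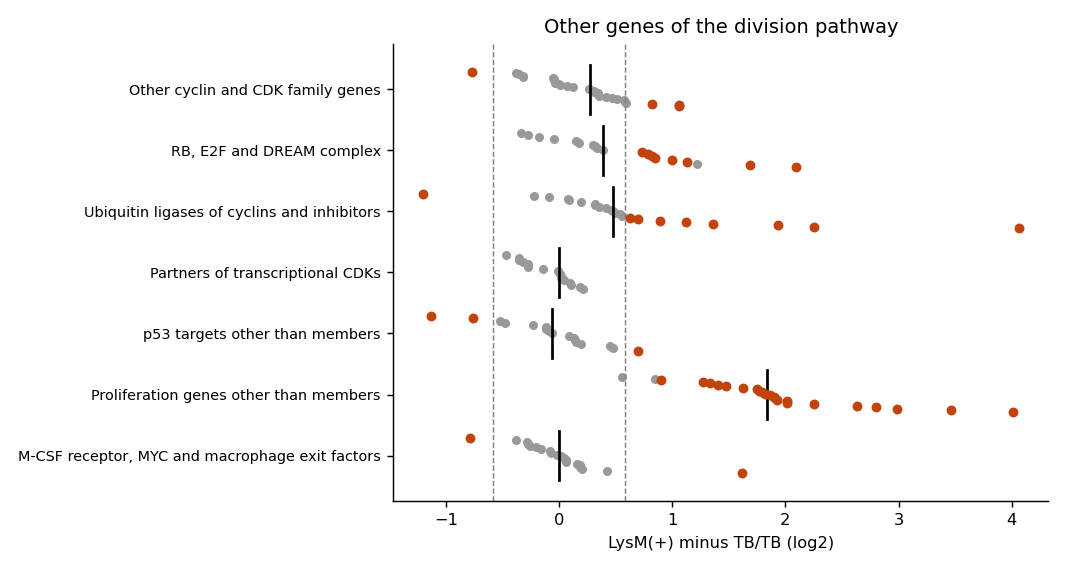
Difference LysM(+) minus TB/TB (log2, horizontal axis) of each measured gene of 7 lists of other pathway genes; coloured points were counted at 1.5-fold with the brighter value at the floor, bars mark list medians and dashed lines mark 1.5-fold. All 24 proliferation genes lie above 0 and all 16 partners of transcriptional CDKs lie between the dashed lines.

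Some markers of other cells were also counted, to be read beside 10.9% higher and 5.16% lower among all genes at the floor. All 17 measured of 19 macrophage markers were at the floor on both arrays, 0 were counted, and the log2 of their summed level was 21.08 in LysM(+) and 21.24 in TB/TB. Of 14 measured of 15 neutrophil markers, 12 reached the floor, 6 were counted as higher in LysM(+) and 0 as lower. Their summed levels were 17.36 in LysM(+) and 17.00 in TB/TB (log2). Of the counted markers, Ltf and Mmp8 were above the background controls on both arrays. Elane and Retnlg were within the background range in TB/TB, and Mmp9 and Cxcr2 on both arrays. A further 3 markers had lower values in LysM(+), with Csf3r the lowest at -0.57. Of 9 measured of 10 monocyte markers, Cx3cr1 was counted as higher and Itgal as lower, with sums of 13.71 in LysM(+) and 13.44 in TB/TB. Of 6 measured of 9 erythroid and megakaryocyte markers, 4 reached the floor, and 2 were counted as higher, Ppbp and Pf4. The sums of the list were 12.48 in LysM(+) and 11.32 in TB/TB. The 4 measured markers other than Ppbp and Pf4 were lower in LysM(+) by less than 1.5-fold. The list's median difference was -0.08, so the sums do not stand for the whole list. Of 8 measured of 9 haematopoietic progenitor markers, 2 reached the floor and 0 were counted. Meis1 read 7.47 in LysM(+) and 7.05 in TB/TB, and Myb read 6.62 in LysM(+) and 6.35 in TB/TB. Kit, Cd34 and Flt3 were among those under the floor on both arrays. Of the 8, 4 had higher and 4 lower values in LysM(+), and the list's sums were 8.97 in LysM(+) and 8.87 in TB/TB. Few of the measured dendritic cell (3 of 9), T and NK cell (1 of 8) and B cell (2 of 6) markers reached the floor. In these lists 0 markers were counted, but those under the floor could not be counted whatever their difference. The fibroblast and osteoclast lists, with 5 of 8 and 4 of 7 measured markers at the floor, each held 1 counted as higher and 1 as lower. The higher osteoclast marker was Mmp9 again. The part of other cells in the cyclin and CDK differences was not tested. In such bulk RNA, more cells in cycle and more of these transcripts per cell cannot be told apart.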

How the data were processed

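Per the labels' protocols, total RNA was labelled with a kit for whole transcripts. There were 2 arrays, 1 per group. The deposited table holds a log2 value per probe set, which, per the submitters' processing notes, the authors produced with RMA in Affymetrix Expression Console. The sources used here give neither versions nor the log base, and base 2 was taken from the method's name. Values ran from 2.71 to 19.5 in LysM(+) and from 2.57 to 19.5 in TB/TB, higher at the top than is usual for RMA, so folds depend on this reading. Scanner intensities and detection calls were not used here. Precision is limited by the number of arrays.

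Of 28846 probe sets, 19572 were named through the platform annotation and matched by Entrez ID to RefSeq (GRCm38.p6), giving 19505 genes. Each measured member had a single probe set (0 had more) and 0 shared both values with another gene. Groups came from the genotype label. The members, 6 role classes, 7 pathway lists and 10 marker lists were chosen with earlier results of these data known. All members are named with their values or differences. For each pathway list the 3 counted genes furthest in its main direction and up to 2 the other way are named. Promoters were to be shown for the 5 members with the largest differences that were at the floor on both arrays; Ccnb2, Ccne1 and Cdk2 had a sequence, and Cdk1 was added after its value was seen. The bound against the highest background control was also chosen after seeing the data.

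No test was run, since each group had 1 array. Alternatives were median centring, quantile normalization, loess (span 0.4), the brightest probe set, other floors and other folds. The procedure was tested on simulated data. Changes were planted only in genes well above the floor, with less noise than these arrays show, so calls of dim genes were not tested. Python 3.11.15, pandas 2.3.3, numpy 2.4.6 and statsmodels 0.14.6 were used.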

Additional observations from a re-analysis of the deposited data

How the results depend on the processing

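Scaling moved little. Median centring changed the side of the 1.5-fold threshold for 0 members, but the median difference of all genes was -0.01 as deposited, so centring shifted values by little. Taking the brightest probe set could change no member, since each had a single probe set. Centring, quantile normalization and loess themselves bring the median difference of all genes to about 0, so its size after them is no check. Quantile normalization and loess each left 0 transcriptional members counted as higher, where 1 was counted, and loess left 0 inhibitors, where 1 was counted. Among all genes at the floor, 9.73% were higher after quantile normalization and 9.29% after loess. Class medians, and their distances from the inhibitors' median, kept within 0.26, the median absolute difference of genes at the floor, which stands in for the unknown replicate spread. The exception was the mean over all members, 0.66, against a median of 0.26.

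Brightness set more. Asking that both arrays exceed every background control left 8 members counted as higher in place of 15, with 1 S or mitotic gene in place of 3, 2 switch genes in place of 6 and 1 lower p53 target in place of 2. Among the 8096 genes that met this condition, 10% were higher and 3.52% lower. The members lost were Ccne2, Ccna2, Cdk1, Cks1b, Cdc25a, Cdc25b and Pkmyt1; of these, Cks1b and Pkmyt1 also fell under 1.5-fold against the highest background control, and Cdc25b had no value there. With no floor, 1 member was lower, the inhibitor Cdkn2a, and Cdc25c was also past 1.5-fold. Of all 19505 named genes, 6.98% were then higher and 5.51% lower.

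At 2-fold in place of 1.5-fold, 7 members were higher, with 1 switch gene, 0 transcriptional genes and 0 inhibitors. Among all genes at the floor, 3.25% were then higher and 0.858% lower. In the pathway lists 3 RB, E2F and DREAM genes and 5 ubiquitin ligase genes were higher, 0 p53 targets were higher and 1 was lower, and 0 other family genes and 0 M-CSF list genes were lower. At a lower threshold of 0.32 on the log2 scale, 2 transcriptional genes and 2 inhibitors were higher, and 2 members were lower, 1 of the switch class and 1 transcriptional. These and the next counts are to be read beside 25.5% higher and 15% lower among all genes at the floor at this threshold. In the lists, 9 other family genes, 15 ubiquitin ligase genes, 3 p53 targets and 2 M-CSF list genes were then higher, and 1 RB, E2F and DREAM gene, 3 partners of transcriptional CDKs and 2 M-CSF list genes lower. In the last 150 bases of the promoters, TATAAA was in 0 of the 10 higher members in place of 1, against 3.65% of promoters of genes at the floor. No paired analysis was possible because each group had 1 array, and for the same reason no array could be left out.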
